A study of Mus musculus with 16 samples.

Results

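Cxcl9, Cxcl10, Cxcl11 and Cxcl16 are named for 4 CXC chemokines that attract T cells, though Cxcl11 is annotated as a polymorphic pseudogene in GRCm38. The 4 genes were read by their symbols from a table of 16094 genes measured in mouse melanoma tumours. The tumours grew from B16R2L mouse melanoma cells injected into mice, and RNA of 16 excised tumours was read by 3′ mRNA sequencing. One line carried the hairpin shMdk, which targets midkine (Mdk), a secreted growth factor, and the other carried a non-target hairpin, shCtrl. Once tumours reached 100 mm3, 2 weekly doses of anti-PD1 (clone RMP1-14, 10 mg/kg per the sample labels) or of control IgG2a were given over 2 weeks. The 4 groups of 4 tumours each were shMdk with anti-PD1, shMdk with IgG2a, shCtrl with anti-PD1 and shCtrl with IgG2a. PD-1 is an inhibitory receptor on T cells, and its blockade is used as immunotherapy. Each line carried a single hairpin, so a difference between the lines cannot be told apart from other differences between them. The strain, age and sex of the mice are not given in the sources used here.

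CXCL9, CXCL10 and CXCL11 are ligands of CXCR3, a receptor on activated T cells and NK cells, and are induced by interferon gamma. Of these, Cxcl9 depends most closely on interferon gamma, whereas Cxcl10 also responds to type I interferon and to NF-kappa B signalling. CXCL16 is made as a membrane-bound chemokine, mainly by macrophages and dendritic cells, is released by the proteases ADAM10 and ADAM17, and binds CXCR6 on effector and resident T cells. In the GENCODE annotation of GRCm38, Cxcl9 (chr5:92321347-92328079), Cxcl10 (chr5:92346638-92348889) and Cxcl11 (chr5:92359544-92365485) lie side by side on the minus strand. Cxcl11 is annotated there as a polymorphic pseudogene. Cxcl16 (chr11:70453983-70459984, minus strand) lies on another chromosome. Art3, on the plus strand, spans Cxcl10 and Cxcl11, and Zmynd15, also on the plus strand, overlaps an end of Cxcl16, but the labels state that counting used strand.

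Of the 4 genes, the neighbours Cxcl9 and Cxcl10 differed most in how they varied across the tumours. No promoter sequence was available here for Cxcl11 or Cxcl16, so the promoters of Cxcl9 and Cxcl10 alone are shown. Both run 5′ to 3′ on the minus strand from 250 bases before to 50 bases after the start (RefSeq, GRCm38.p6, chr5:92328030-92328329 for Cxcl9 and chr5:92348840-92349139 for Cxcl10). Capitals mark matches to an interferon-stimulated response element (ISRE, searched as GAAA, any 2 bases and GAAA) or to the kappa B consensus on either strand.
Cxcl9: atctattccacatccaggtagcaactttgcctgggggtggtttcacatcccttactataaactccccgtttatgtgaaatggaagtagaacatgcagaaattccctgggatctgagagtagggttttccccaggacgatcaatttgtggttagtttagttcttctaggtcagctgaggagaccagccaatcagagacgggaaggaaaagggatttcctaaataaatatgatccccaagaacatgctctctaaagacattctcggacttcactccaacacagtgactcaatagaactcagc
Cxcl10: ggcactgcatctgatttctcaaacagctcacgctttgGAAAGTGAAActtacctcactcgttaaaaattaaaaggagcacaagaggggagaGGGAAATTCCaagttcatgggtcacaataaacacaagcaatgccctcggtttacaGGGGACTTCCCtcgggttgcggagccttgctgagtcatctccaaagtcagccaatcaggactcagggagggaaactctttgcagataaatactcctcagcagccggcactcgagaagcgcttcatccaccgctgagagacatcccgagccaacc
The Cxcl10 window held 1 ISRE match, GAAAGTGAAA, starting at base -213 relative to the start. It also held a kappa B match, GGGAAATTCC, at -159, and overlapping kappa B matches at -104 and -103. The Cxcl9 window held no match to either motif or to the gamma-activated sequence TTCNNNGAA, which was also without a match in the Cxcl10 window. Only exact matches to these patterns were searched, so imperfect forms of the elements would be missed. The search therefore does not show that the Cxcl9 window lacks such elements. Among 32851 promoter windows of the same length, 3.44% held the ISRE, 8.30% the gamma-activated sequence and 8.46% the kappa B consensus.

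Values below are normalised read counts, that is, read counts divided by the size factor of each library. Recovered reads numbered 5686405 to 8886334 per tumour. Mdk averaged 211 ± 106 in shMdk anti-PD1 tumours and 199 ± 89.3 in shMdk IgG2a tumours, against 873 ± 206 in shCtrl anti-PD1 and 862 ± 249 in shCtrl IgG2a tumours (SD, n = 4 each). The lines did not overlap in Mdk, which checks their labels. All 8 melanoma and pigment cell markers were in the table, and their summed level had group medians of 141801 to 179654. Some libraries stood apart. Reads of Gm42418 made up 3.17% of shMdk IgG2a tumour 1 and 4.47% of shCtrl anti-PD1 tumour 2, and at most 1.56% of any other library; shCtrl anti-PD1 tumour 2 also had a summed erythroid marker level of 574472, against at most 123865 in the rest. In 5 libraries (shMdk anti-PD1 tumour 1, shMdk IgG2a tumours 3 and 4, and shCtrl IgG2a tumours 1 and 2) log2 levels climbed with GC content of the 3′ end, by 0.0877 to 0.183 per 10 percentage points, against -0.128 to 0.00137 in the other 11.

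Differences between groups were tested with limma on log2(normalised count + 1) over 14672 genes with a mean count of at least 5, and a gene was called at a Benjamini-Hochberg adjusted p below 0.05. All 4 chemokine genes passed this filter. Under anti-PD1, Cxcl9 and Cxcl16 were called higher in shMdk than in shCtrl tumours, and under IgG2a Cxcl9 alone of the 4 was. By comparison, 4.93% of all tested genes were called higher in shMdk tumours under anti-PD1 and 1.63% under IgG2a (5.93% and 1.74% in either direction). Cxcl10 stayed at a high level in every group, and Cxcl11 counts were low.

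Cxcl9, the interferon gamma-dependent CXCR3 ligand, had 969.5, 699, 545 and 644 normalised counts in the shMdk anti-PD1 tumours, against 32.2, 4.50, 112 and 105 in the shCtrl anti-PD1 tumours. Under IgG2a it had 382, 274, 633 and 452 in shMdk tumours, against 108, 23.4, 11.4 and 24.9 in shCtrl tumours. Every shMdk tumour therefore lay above every shCtrl tumour under both antibodies. The log2 fold change was 4.19 ± 0.75 (SE) under anti-PD1 (limma, adjusted p = 0.00275, 95% interval 2.60 to 5.77) and 3.78 ± 0.75 under IgG2a (limma, adjusted p = 0.0118, 95% interval 2.19 to 5.36). As a ratio of group means, Cxcl9 was 11.3 times as high in shMdk as in shCtrl tumours under anti-PD1 and 10.4 times under IgG2a. Without shCtrl anti-PD1 tumour 2, where Cxcl9 was lowest, the log2 fold change under anti-PD1 was 3.25 and the gene was still called. Under IgG2a the call was lost without shMdk IgG2a tumour 3 (log2 fold change 3.57, limma adjusted p = 0.0540) and without the 5 libraries with a positive GC slope (4.18, limma adjusted p = 0.0917), a fit that left 2 tumours in each IgG2a group.

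Cxcl16, the membrane-bound ligand of CXCR6, had 372, 321, 142 and 206 normalised counts in the shMdk anti-PD1 tumours, against 23.9, 1.50, 37.2 and 43.1 in the shCtrl anti-PD1 tumours. The value of 1.50 was a single read, in shCtrl anti-PD1 tumour 2. Under IgG2a Cxcl16 had 161, 76.4, 166 and 240.7 in shMdk tumours, against 36.0, 33.0, 15.2 and 20.3 in shCtrl tumours. The lines again did not overlap under either antibody. The log2 fold change was 3.76 ± 0.67 under anti-PD1 (limma, adjusted p = 0.00275, 95% interval 2.34 to 5.18). It was 2.55 ± 0.67 under IgG2a, which missed the threshold (limma, adjusted p = 0.0707, 95% interval 1.13 to 3.97). Without shCtrl anti-PD1 tumour 2, the IgG2a value was unchanged at 2.55 and was called (limma, adjusted p = 0.00120) once that tumour no longer entered the spread shared by all 4 groups. The anti-PD1 value was then 2.81 and was still called.

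**Figure D1:**
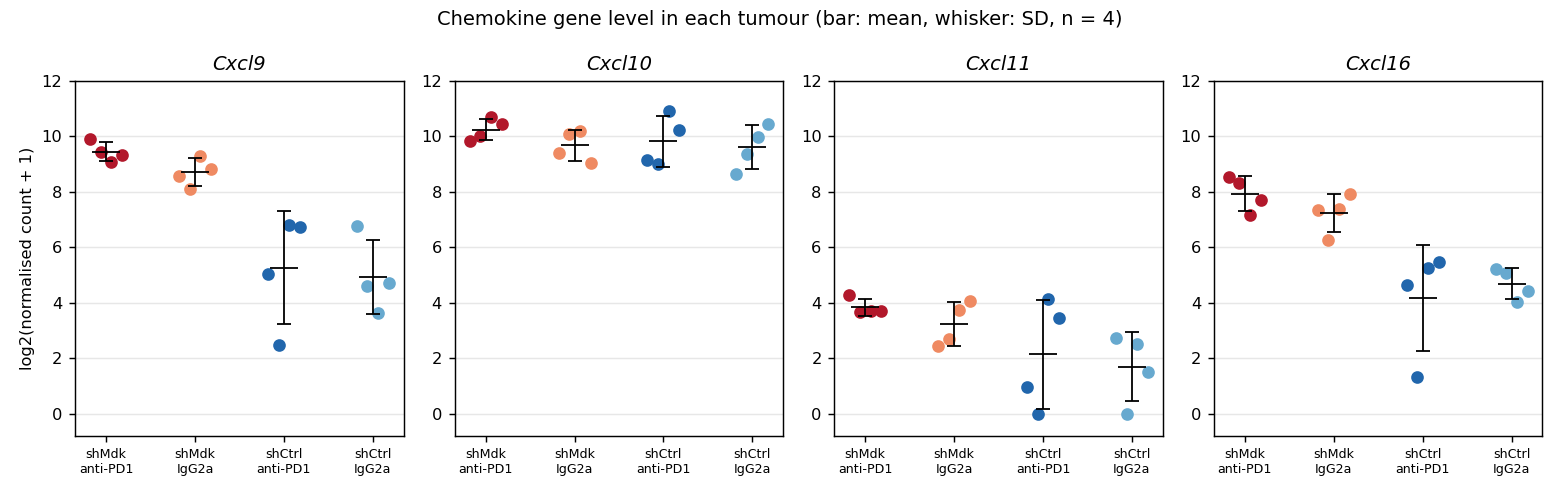
Normalised read counts of the 4 chemokine genes in each of the 16 tumours, by group, as log2(normalised count + 1), with bars at group means and whiskers of 1 SD (n = 4). The shMdk tumours lie above all shCtrl tumours of the same antibody in Cxcl9 and Cxcl16, while the groups overlap in Cxcl10 and Cxcl11.

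Cxcl10, the CXCR3 ligand with the broadest set of inducers, had 922, 1030.2, 1665 and 1388 normalised counts in the shMdk anti-PD1 tumours, against 569, 512, 1945 and 1196 in the shCtrl anti-PD1 tumours. Under IgG2a it had 675, 1100.5, 1178 and 527 in shMdk tumours, against 397, 664, 1008 and 1403 in shCtrl tumours. The lines overlapped under both antibodies, and the highest value of either pair of groups was in a shCtrl tumour. The log2 fold change was 0.42 ± 0.42 under anti-PD1 (limma, adjusted p = 0.680, 95% interval -0.46 to 1.31) and 0.08 ± 0.42 under IgG2a (limma, adjusted p = 0.989, 95% interval -0.81 to 0.96). These intervals leave room for a change of up to 1.31 on the log2 scale, well below the lower bounds for Cxcl9. The 5 libraries with a positive GC slope read low in Cxcl10, with a median of 664 (397 to 1178) against 1100.5 (512 to 1945) in the other 11, and without them the IgG2a log2 fold change was -0.46 (limma, adjusted p = 0.744). The 300 bases at the 3′ end had a GC content of 30.7% in Cxcl10, 34.3% in Cxcl9, 38.0% in Cxcl16 and 40.0% in Cxcl11.

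Cxcl11 is named for the remaining CXCR3 ligand and is a polymorphic pseudogene in the annotation. It had 18.5, 11.8, 11.9 and 11.8 normalised counts in the shMdk anti-PD1 tumours, against 0.920, 0, 16.7 and 9.89 in the shCtrl anti-PD1 tumours. Under IgG2a it had 4.45, 5.46, 12.3 and 15.8 in shMdk tumours, against 5.63, 0, 4.76 and 1.85 in shCtrl tumours. These are 59 and 38 reads in all in the shMdk anti-PD1 and shMdk IgG2a groups, against 30 and 12 reads in the shCtrl anti-PD1 and shCtrl IgG2a groups. The lines overlapped under both antibodies. The log2 fold change was 1.70 ± 0.81 under anti-PD1 (limma, adjusted p = 0.280) and 1.54 ± 0.81 under IgG2a (limma, adjusted p = 0.599), so no difference was detectable at this depth.

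An exact two-sided permutation test of each gene, 4 tumours against 4, gave p = 0.0286 for Cxcl9 and for Cxcl16 between the lines under each antibody. That is the smallest p such a design allows, and adjusted over the 16 tests made it was 0.114. Groups did not overlap, with shMdk higher, in 8.23% of all tested genes under anti-PD1 and 4.16% under IgG2a. The exact permutation p between the lines lay between 0.143 and 0.857 for Cxcl10 and Cxcl11.

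**Figure D2:**
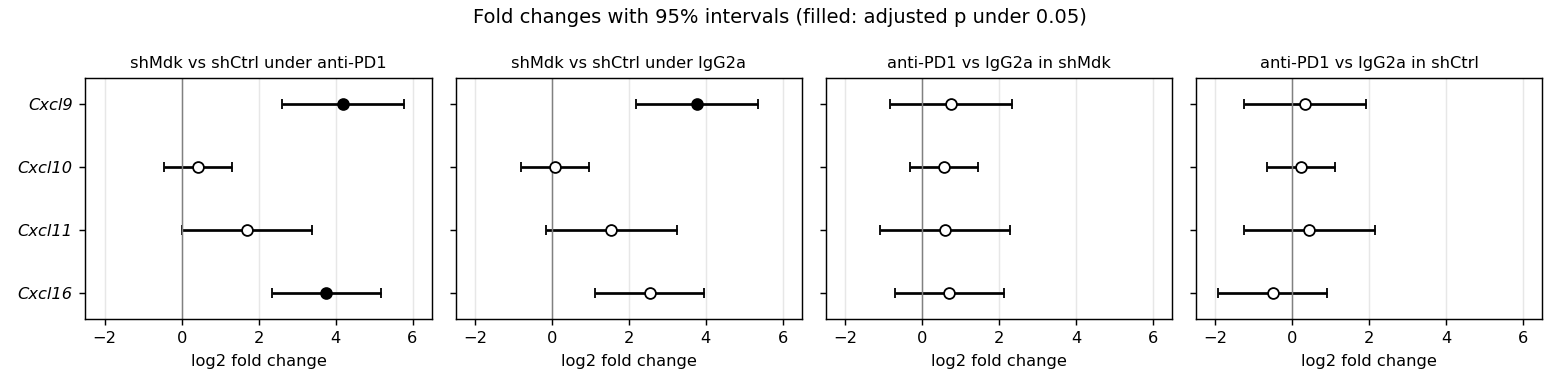
Log2 fold changes of the 4 chemokine genes from the limma fit, with 95% intervals; filled points passed the threshold of 0.05. Between the lines Cxcl9 and Cxcl16 lie far from 0 under both antibodies, whereas every interval of the anti-PD1 against IgG2a comparisons includes 0.

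Anti-PD1 moved none of the 4 genes past the test in either line. In shMdk tumours all 4 log2 fold changes of anti-PD1 over IgG2a were positive, at 0.75 ± 0.75 for Cxcl9, 0.70 ± 0.67 for Cxcl16, 0.60 ± 0.81 for Cxcl11 and 0.56 ± 0.42 for Cxcl10, with limma adjusted p of 0.566 to 0.749. Cxcl9 averaged 714 ± 182 in shMdk anti-PD1 tumours and 435 ± 151 in shMdk IgG2a tumours (SD, n = 4 each). Of the shMdk anti-PD1 tumours 3 of 4 lay above all shMdk IgG2a tumours in Cxcl9 (exact permutation p = 0.0571). Cxcl16 averaged 260.3 ± 105 in shMdk anti-PD1 and 161 ± 67.2 in shMdk IgG2a tumours. In this comparison limma called 5 genes, or 0.0341% of those tested: Ctsl, Mmp12, Sdc3 and Slfn4 were higher and Mbnl3 lower under anti-PD1, named after their values were seen.

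In shCtrl tumours the anti-PD1 log2 fold changes were 0.44 ± 0.81 for Cxcl11, 0.34 ± 0.75 for Cxcl9, 0.22 ± 0.42 for Cxcl10 and -0.51 ± 0.67 for Cxcl16, with limma adjusted p of 0.850 to 0.916. Cxcl9 averaged 63.4 ± 53.3 in shCtrl anti-PD1 tumours and 42.0 ± 44.5 in shCtrl IgG2a tumours, a difference smaller than either SD. Cxcl16 averaged 26.4 ± 18.5 in shCtrl anti-PD1 and 26.1 ± 9.98 in shCtrl IgG2a tumours, and its log2 fold change was 0.44 without shCtrl anti-PD1 tumour 2. Here limma called 0 genes (0%), with 556 at an unadjusted p below 0.05, while edgeR called 0 and DESeq2 called 7. The difference between the lines in the anti-PD1 effect, shMdk minus shCtrl, was 1.22 ± 0.95 for Cxcl16, 0.41 ± 1.06 for Cxcl9, 0.35 ± 0.59 for Cxcl10 and 0.15 ± 1.14 for Cxcl11 on the log2 scale. No gene passed limma in that test (0%, with 506 at an unadjusted p below 0.05), and edgeR and DESeq2 also called 0.

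Shares within the chemokine reads were not tested. Of the reads summed over the 4 genes, Cxcl10 made up 55.6% ± 13.2 in shMdk anti-PD1 tumours and 58.2% ± 13.6 in shMdk IgG2a tumours, against 92.6% ± 4.48 in shCtrl anti-PD1 and 89.6% ± 11.5 in shCtrl IgG2a tumours (SD, n = 4 each). Cxcl9 made up 32.0% ± 8.27 and 29.6% ± 7.60 in the shMdk anti-PD1 and shMdk IgG2a groups, against 4.76% ± 2.86 and 6.46% ± 8.91 in the shCtrl anti-PD1 and shCtrl IgG2a groups. Under IgG2a the Cxcl10 shares of the lines overlapped, reaching up to 75.6% in shMdk and down to 72.6% in shCtrl tumours. With 3′ reads a transcript gives about 1 tag whatever its length, so these shares do not scale with transcript length. Cxcl10 read low in the 5 libraries with a positive GC slope, and the part of GC content in these shares was not tested.

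The ratio of Cxcl9 to Cxcl10 within a tumour had a median of 0.571 (0.327 to 1.05) in shMdk anti-PD1 tumours, against 0.0570 (0.00880 to 0.0879) in shCtrl anti-PD1 tumours. Under IgG2a it had a median of 0.551 (0.249 to 0.858) in shMdk tumours, against 0.0265 (0.0113 to 0.272) in shCtrl tumours. For the tests, the log2 ratio was the difference between the log2(normalised count + 1) values of the 2 genes, so the added 1 weighs on low counts. The ratios were added after the levels were seen and restate them, so these tests are no separate support. The lines did not overlap under anti-PD1, where the mean log2 ratio differed by 3.76 (exact permutation p = 0.0286). They overlapped under IgG2a through shCtrl IgG2a tumour 1, the highest of its group and 1 of the 5 libraries with a positive GC slope. The IgG2a difference was 3.70 (exact permutation p = 0.0571). The highest ratios of the shMdk groups, 1.05 in anti-PD1 tumour 1 and 0.858 in IgG2a tumour 4, were also in such libraries. The part of GC content in the ratios was not tested. The mean log2 ratio of Cxcl16 to Cxcl10 differed between the lines by 3.34 under anti-PD1 (exact permutation p = 0.0286) and by 2.47 under IgG2a (exact permutation p = 0.0571). That of Cxcl9 to Cxcl16 differed by 0.42 under anti-PD1 (exact permutation p = 0.229) and by 1.23 under IgG2a (exact permutation p = 0.0857). Over the 12 ratio tests made the lowest adjusted p was 0.171.

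**Figure D3:**
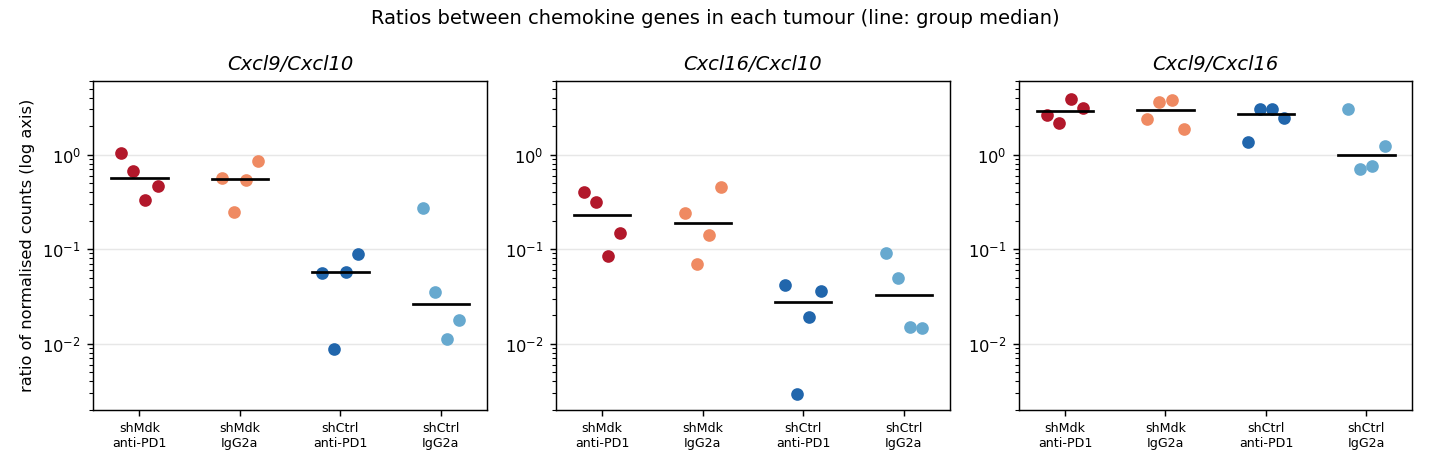
Ratios of normalised counts between chemokine genes in each tumour, by group, on logarithmic axes, with lines at group medians. The Cxcl9 to Cxcl10 ratio has medians of 0.571 and 0.551 in the shMdk groups and 0.0570 and 0.0265 in the shCtrl groups, while the Cxcl9 to Cxcl16 ratio overlaps between the lines.

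Within the shCtrl line, Cxcl9 and Cxcl16 were correlated by Pearson's r; in the shMdk line their correlation did not pass adjustment, and no test compared correlations between gene pairs. Over the 8 shCtrl tumours, log2 levels of Cxcl9 and Cxcl16 correlated with Pearson's r = 0.86 (exact permutation p = 7.94e-04, adjusted over 12 pairs 0.00952) and Spearman's rho = 0.86 (exact permutation p = 0.0107, adjusted 0.102). Without the 2 tumours farthest from the median of Cxcl9, r was 0.86 (exact permutation p = 0.0361). Over the 8 shMdk tumours r was 0.84 (exact permutation p = 0.0111, adjusted 0.0667) and rho 0.81 (exact permutation p = 0.0218, adjusted 0.102). There r was 0.39 without the 2 tumours farthest from the median of Cxcl9 (exact permutation p = 0.442). Leaving these out also narrows the range of Cxcl9. The lower r over 6 tumours therefore does not show whether the relation in shMdk tumours rests on them. Between Cxcl9 and Cxcl10, r was 0.23 in shMdk tumours (exact permutation p = 0.591) and 0.28 in shCtrl tumours (exact permutation p = 0.491), with rho of 0.14 (exact permutation p = 0.752) and 0.29 (exact permutation p = 0.501); without the 2 farthest tumours r was 0.67 and -0.32. Each line's 8 tumours span both antibodies.

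Genes were ranked by how closely their log2 profile over the 16 tumours, centred on its own mean, followed that of each chemokine gene, using the root mean square difference. This measure includes the difference between the lines, and a flat profile would lie at the gene's own root mean square around its mean, 2.28 for Cxcl9. Of 10695 genes, the closest to Cxcl9 were Cd74, encoding the MHC class II invariant chain (0.51), Nkg7, of cytotoxic granules (0.54), the MHC class II genes H2-Ab1 (0.59) and H2-Eb1 (0.63), and Il18bp, the secreted inhibitor of interleukin 18 (0.69). Cxcl16 ranked 8 among them and Cxcl10 ranked 1813.

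The closest to Cxcl16 were Il18bp (0.40), the macrophage gene Adgre1 (0.50), the lysosomal peptide transporter gene Slc15a3 (0.53), the macrophage growth factor receptor gene Csf1r (0.54) and the interferon-inducible Ifi209 (0.55), against its own 1.87. Il18bp thus stood among the 5 closest to both. It averaged 236 ± 52.6 in shMdk anti-PD1 and 137 ± 58.9 in shMdk IgG2a tumours, against 35.0 ± 24.5 in shCtrl anti-PD1 and 20.9 ± 10.4 in shCtrl IgG2a tumours. Its log2 fold change between the lines was 3.25 ± 0.63 under anti-PD1 (limma, adjusted p = 0.00466) and 2.65 ± 0.63 under IgG2a (limma, adjusted p = 0.0378). Il18bp was picked for closeness to 2 profiles that separate the lines in these same tumours. Its difference between the lines follows largely from that choice and is no separate support.

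For Cxcl11, the closest of 10696 genes were Gbp7 (0.72), Gbp3 (0.78), Igtp (0.78), Tap1 (0.79) and Ifi44 (0.80), all interferon-inducible, against its own 1.37; guanylate-binding protein genes are a family whose members can share reads. For Cxcl10 they were Pus1 (0.34), a pseudouridine synthase gene, Pdia6 (0.36), a protein disulfide isomerase gene, Vgll3 (0.37), a transcription cofactor gene, and the glycosyltransferase genes St3gal4 (0.38) and Fut8 (0.38), against its own 0.65. The 5 genes closest to Cxcl10 were not called between the lines under either antibody. Like Cxcl10, each had a lower median in the 5 libraries with a positive GC slope than in the other 11. The medians were 55.7 against 108 for Pus1, 1804 against 2324 for Pdia6 and 259 against 410 for Vgll3. They were 68.3 against 114 for St3gal4 and 33.6 against 61.1 for Fut8. These 5 genes were picked for closeness to Cxcl10 in these same tumours. Cxcl10 itself was not called between the lines and read low in those libraries. Both traits of the 5 genes therefore follow largely from the choice and are no separate findings. The part of GC content in this likeness was not tested.

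**Figure D4:**
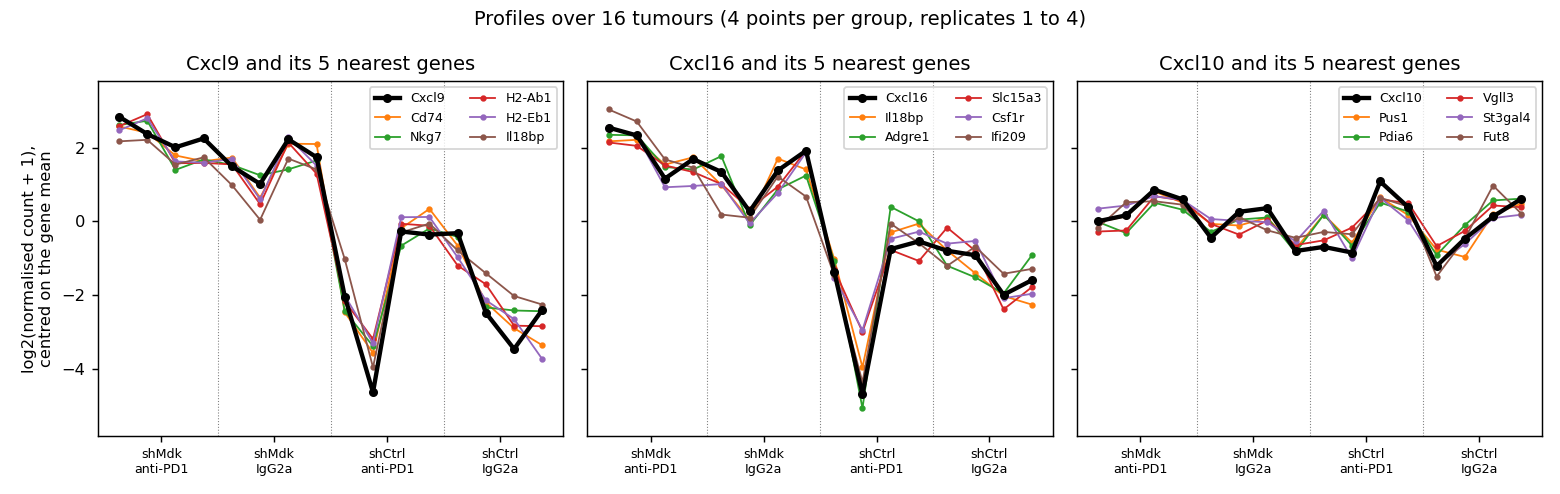
Log2(normalised count + 1) of Cxcl9, Cxcl16 and Cxcl10, each with its 5 closest genes, over the 16 tumours, every gene centred on its own mean; lines join the points of a gene and the order of tumours within a group carries no meaning. Cxcl9 and Cxcl16 with their closest genes sit mostly above 0 in the shMdk tumours and mostly below it in the shCtrl tumours.

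On the receptor side, Cxcr3, the receptor of CXCL9, CXCL10 and CXCL11, averaged 29.6 ± 12.7 in shMdk anti-PD1 and 37.8 ± 10.0 in shMdk IgG2a tumours, against 48.2 ± 14.3 in shCtrl anti-PD1 and 33.2 ± 8.32 in shCtrl IgG2a tumours. Its log2 fold change between the lines was -0.75 ± 0.32 under anti-PD1 (limma, adjusted p = 0.228) and 0.17 ± 0.32 under IgG2a (limma, adjusted p = 0.947). Cxcr6, the receptor of CXCL16, had 18.5, 12.7, 5.93 and 4.23 normalised counts in shMdk anti-PD1 tumours, against 0, 0, 2.79 and 4.49 in shCtrl anti-PD1 tumours. Under IgG2a it had 8.90, 0.909, 3.79 and 2.10 in shMdk tumours, against 0, 1.07, 0 and 0.923 in shCtrl tumours. With 44 and 15 reads in the shMdk anti-PD1 and shMdk IgG2a groups and 8 and 2 reads in the shCtrl anti-PD1 and shCtrl IgG2a groups, it lay below the filter and was not tested. Of 5 tested genes among receptors, decoy receptors and processing enzymes, 0 were called in either comparison of the lines (1 under anti-PD1 without the 2 libraries high in Gm42418). The largest log2 fold change under anti-PD1 was that of Ackr3, a decoy receptor gene, at 2.15 ± 0.70 (limma, adjusted p = 0.0834). Dpp4, whose product cleaves the CXCR3 ligands, had -0.94 ± 0.61 under anti-PD1 and -1.16 ± 0.61 under IgG2a. Adam10 and Adam17 differed by at most 0.36 on the log2 scale.

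Signalling genes upstream of these chemokines were higher in shMdk tumours in part. Under anti-PD1 9 of 20 tested genes for inducers, receptors and transducers of interferon and TNF signals were called higher, and under IgG2a 4 of 20 were (1 of 20 without the 5 libraries with a positive GC slope). Without these 5 libraries, 2 tumours were left in each IgG2a group and fewer genes were called overall. This holds for all IgG2a counts without the 5 libraries given below. The part of the smaller groups in these lower counts was not tested. Irf1, a transcription factor that interferon gamma induces, averaged 1525 ± 303 in shMdk anti-PD1 and 1005 ± 421 in shMdk IgG2a tumours, against 402 ± 203 in shCtrl anti-PD1 and 239.7 ± 27.0 in shCtrl IgG2a tumours. Its log2 fold change was 2.05 ± 0.32 under anti-PD1 (limma, adjusted p = 0.00116) and 1.98 ± 0.32 under IgG2a (limma, adjusted p = 0.00363). Irf8, a myeloid and interferon gamma-induced factor, had log2 fold changes of 2.96 ± 0.32 under anti-PD1 (limma, adjusted p = 7.76e-05) and 2.49 ± 0.32 under IgG2a (limma, adjusted p = 0.00104). Of the 22 genes listed for these signals, 20 were in the table, and Ifng and Ifnb1 were not among the genes analysed.

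Of 18 other genes induced by interferon gamma, 13 were called higher in shMdk tumours under anti-PD1 and 13 under IgG2a, with median log2 fold changes of 2.04 and 2.26 against -0.02 and -0.01 over all tested genes. Under anti-PD1 the largest were Gbp5 (3.77 ± 0.66), Cd74 (3.56 ± 0.70) and H2-Ab1 (3.54 ± 0.60), and under IgG2a Cd74 (3.92 ± 0.70), H2-Eb1 (3.89 ± 0.67) and H2-Ab1 (3.50 ± 0.60). The IgG2a count was 2 without the 5 libraries with a positive GC slope, a fit with 2 tumours in each IgG2a group. The anti-PD1 count was 10 without the 2 libraries high in Gm42418.

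Other chemokine genes differed between the lines mostly under anti-PD1. Of 7 other CXC, CX3C and XC chemokine genes, 4 were called higher in shMdk tumours under anti-PD1 and 0 under IgG2a, where 1422 genes in all had an unadjusted p below 0.05. The 4 were Cxcl5, a neutrophil attractant (log2 fold change 3.56 ± 1.03), Cxcl14 (3.12 ± 0.73), Pf4 (2.22 ± 0.33) and Cxcl12, the CXCR4 ligand (1.81 ± 0.49). With TMM scaling 3 of the 7 were called, and without the 5 libraries 1 of 6. Of 11 CC chemokine genes, 9 were called higher under anti-PD1 (6 without the 2 libraries high in Gm42418) and Ccl4 alone under IgG2a (none without the 5 libraries). Ccl8 led with 4.34 ± 0.64 under anti-PD1, and Ccl5, a further T cell attractant, had 1.67 ± 0.28. Of 7 tested other chemokine receptor genes, 4 were called higher under anti-PD1 (3 without the 5 libraries), among them Ccr1, Ccr2 and Cxcr4, and Ccr2 alone under IgG2a (2 genes without the 2 libraries high in Gm42418 and none without the 5). Whether the effect differed between the antibodies was tested for each gene by the difference of anti-PD1 effects above, which called none.

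**Figure D5:**
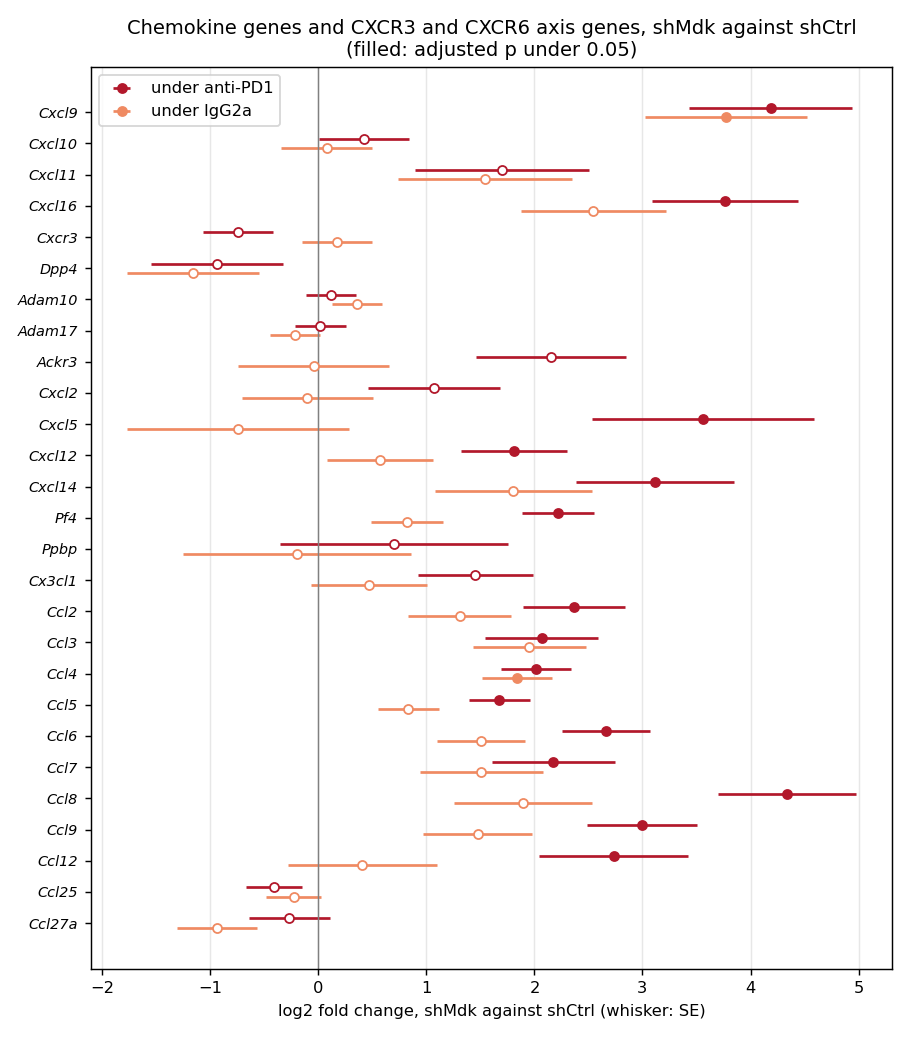
Log2 fold changes between shMdk and shCtrl tumours of the tested chemokine genes, and of receptors and processing enzymes of the CXCR3 and CXCR6 axis, under anti-PD1 and under IgG2a, from the limma fit, with whiskers of 1 SE; filled points passed the threshold. Cxcl9 and Cxcl16 are among the largest under both antibodies and Cxcl10 lies near 0.

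Some markers of cells that make or answer these chemokines were called higher in shMdk tumours, and others were not. In bulk tumours, more cells of a type and more RNA per cell cannot be told apart. Of 12 macrophage and monocyte markers, 11 were called higher in shMdk tumours under anti-PD1 (9 without the 2 libraries high in Gm42418, 8 without the 5) and 5 under IgG2a (0 without the 5 libraries with a positive GC slope). Their summed level had a median of 6864 (4153 to 9488) in shMdk anti-PD1 and 3684 (1911 to 4466) in shMdk IgG2a tumours, against 1465 (512 to 2002) in shCtrl anti-PD1 and 901 (594 to 1459) in shCtrl IgG2a tumours. Within either antibody the lines did not overlap in this sum. Of 4 dendritic cell markers, Itgax and Batf3 were called higher under anti-PD1 and Itgax under IgG2a (none without the 5 libraries), whereas Xcr1 and Zbtb46 were not. The part of these cells in the Cxcl9 and Cxcl16 levels was not tested. The IgG2a counts without the 5 libraries came from 2 tumours in each group.

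Of 8 T cell markers, 5 were called higher in shMdk tumours under anti-PD1, led by Cd3d at 3.61 ± 0.58, and 0 under IgG2a (1 without the 2 libraries high in Gm42418). The anti-PD1 count was 2 without the 2 libraries high in Gm42418 and 1 of 7 without the 5 libraries. The summed level had a median of 248 (133 to 387) in shMdk anti-PD1 and 149 (103 to 213) in shMdk IgG2a tumours, against 78.7 (41.4 to 114) in shCtrl anti-PD1 and 42.6 (35.2 to 99.1) in shCtrl IgG2a tumours. Of 4 NK and cytotoxic markers, Gzma, Prf1 and Nkg7, all cytotoxic granule genes, were called higher under both antibodies, at 4.83 ± 0.72, 4.35 ± 0.69 and 3.76 ± 0.63 under anti-PD1 and 3.53 ± 0.72, 3.26 ± 0.69 and 3.36 ± 0.63 under IgG2a. Without the 5 libraries, which left 2 tumours in each IgG2a group, 1 of 4 was called under IgG2a.

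Under anti-PD1, 3 of 6 fibroblast markers (0 without the 2 libraries high in Gm42418 and 0 without the 5), 3 of 7 endothelial markers (2 without the 2 and 1 without the 5) and 1 of 5 neutrophil markers (3 without the 2 and 0 without the 5) were called higher in shMdk tumours, and 0 of each under IgG2a. The keratinocyte marker Dsp, the single one tested, was called higher under anti-PD1, though not without the 5 libraries. No marker of melanoma cells (8 tested), B and plasma cells (3) or erythroid cells (5) was called between the lines. In the anti-PD1 against IgG2a comparisons 0 genes of any of these lists were called in either line.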

How the data were processed

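RNA of 16 tumours was sequenced from the 3′ end with a stranded kit (QuantSeq 3′ FWD), per the labels' protocols. Per the submitters' processing notes, reads were checked with FastQC 0.11.0; the notes also name HTSeq, TopHat2 2.0.10 with Bowtie 1.0.0, DESeq2 and SAMtools 0.1.19, and the build GRCm38 (mm10). The deposited values are a signal: read counts that the authors divided by size factors. Multiplying back gave whole reads within 0.001 for 100% of values, and recomputed DESeq2 size factors matched in 16 of 16 tumours, so count tests were run on recovered reads as alternatives.

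Normalised counts were tested on log2(value + 1) with limma 3.58.1 (R 4.3.3) in one fit of 4 group means over 16 tumours (12 residual degrees of freedom, mean-dependent prior), with Benjamini-Hochberg adjustment over 14672 genes. 3′ counting limits low genes such as Cxcl11, and intervals cover the spread between these tumours. Nothing states that tumours of a group came from separate mice, so p-values measure the spread between tumours. The script was tested on simulated data. The design text gives the antibody dose in grams where the labels give milligrams. Named genes were the 4 chemokine genes, the 5 genes closest in profile to each (mean count of at least 20), receptors, enzymes and interferon signal genes, up to 3 called genes with the largest change per list, and Mdk; Ccl5 and the genes named in full for short counts were added after their values were seen. The ratios between chemokine genes were added after their levels were seen. Members and lists were chosen with earlier results of these data known. Alternatives were pseudocounts of 0.5 and 5, no filter or a minimum of 20, TMM scaling, edgeR, DESeq2, the 2 groups alone, leaving out each tumour, and leaving out the library sets described above. Some results are not reported here. Tumour numbers follow deposition order.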

Additional observations from a re-analysis of the deposited data

Results flagged for a closer look

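In 2 of the 16 sets of 4 tumours formed by the 4 genes and 4 groups, a tumour stood apart by Dixon's criterion. The criterion was applied to normalised counts and not to log2 values. Chance meets it in about 1 of 20 sets of normally distributed values. Cxcl9 was at 108 normalised counts in shCtrl IgG2a tumour 1, while the other tumours of that group lay between 11.4 and 24.9. This tumour also had the highest summed T cell marker level of its group, 99.1 against 35.2 to 43.7, and is among the 5 libraries with a positive GC slope; their part in the value was not tested. Cxcl11 was at 18.5 normalised counts in shMdk anti-PD1 tumour 1, while the rest of that group lay between 11.8 and 11.9. These values stand on 19 reads in tumour 1 and on 12, 14 and 14 reads in the others. Tumour 1 of that group is also among the 5 libraries with a positive GC slope. The same tumour had the highest Cxcl9 and Cxcl16 levels of all 16 tumours.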

How the results depend on the processing

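No paired analysis was possible because the labels carry no replicate numbers. With pseudocounts of 0.5 and 5, no filter, a minimum of 20, TMM scaling, edgeR, DESeq2, the 2 groups alone and either library set left out, Cxcl9 and Cxcl16 kept their direction and call between the lines under anti-PD1, as in each fit without a tumour. Cxcl16 under IgG2a was called with a pseudocount of 5 (2.37), edgeR (2.63), DESeq2 (2.63), the 2 groups alone (2.55) and without the 2 libraries high in Gm42418 (2.51). Cxcl9 under IgG2a was not called without the 5 GC libraries (4.18). Genes called between the lines numbered 870 under anti-PD1 and 255 under IgG2a, and 1310 and 449 with DESeq2; without the 5 libraries 74 were called under IgG2a. The count of 5 for anti-PD1 in shMdk tumours was 3 with a pseudocount of 0.5, no filter or TMM, 27 with a pseudocount of 5, 8 with edgeR, 248 with DESeq2, 25 with the 2 groups alone, 11 without the 2 libraries and 1 without the 5. In shCtrl tumours anti-PD1 gave 7 genes with DESeq2 and 3 without the 2 libraries. The causes were not tested.

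Signs turned, in values never called, for Cxcl16 under anti-PD1 in shCtrl (0.10 with edgeR, 0.049 with DESeq2, 0.44 without the 2 libraries) and for Cxcl10 without the 5 libraries (-0.46 between the lines under IgG2a, -0.39 for anti-PD1 in shCtrl). The difference of anti-PD1 effects turned for Cxcl11 (-0.73 with edgeR, -0.71 with DESeq2, -0.82 without the 2 libraries), Cxcl9 (-0.57 without the 2, -0.15 without the 5) and Cxcl10 (-0.024 without the 2).

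Leaving out 1 tumour at a time gave 443 to 912 genes between the lines under anti-PD1 (443 without shMdk anti-PD1 tumour 1, 569 without tumour 2) and 136 to 363 under IgG2a (136 without shMdk IgG2a tumour 3, 167 without tumour 1, 160 and 158 without shCtrl IgG2a tumours 3 and 4). It gave 0 to 36 genes for anti-PD1 in shMdk (36 without shCtrl anti-PD1 tumour 2) and 0 to 2 in shCtrl. Between the lines under IgG2a the log2 range was 3.34 to 4.39 for Cxcl9, 2.32 to 2.86 for Cxcl16 and -0.25 to 0.36 for Cxcl10. For anti-PD1 in shCtrl it was -0.18 to 1.27 for Cxcl9, -0.15 to 0.50 for Cxcl10, -0.23 to 1.15 for Cxcl11 and -0.94 to 0.44 for Cxcl16. For the difference of anti-PD1 effects it was -0.52 to 0.93 for Cxcl9 and -0.56 to 0.82 for Cxcl11. Cxcl11 was not tested at a minimum of 20.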

Other observations

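Dpp4, whose product trims and inactivates CXCR3 ligands, read low in the libraries where Cxcl10 did. In the 5 libraries with a positive GC slope Dpp4 had a median of 9.01 normalised counts (3.15 to 14.9), against 28.8 (12.7 to 59.1) in the other 11. The part of GC content in these levels was not tested. Cxcl9 went the other way, with a median of 452 in the 5 libraries against 112 in the other 11, and these 5 hold 3 shMdk and 2 shCtrl tumours.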
